A study of Mus musculus with 6 samples.

Results

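The genes described here act in the adhesion and fusion of muscle cells and in the repair and folding of their membrane: CDH15, CDH2, NCAM1, VCAM1, CAV3, CAV1, DYSF, CD9, CD81 and BIN1. They were taken by name, ignoring case, from the target names of an Illumina mouse BeadChip, and all 10 were found among its 30854 target names, with 22 of its 45281 probes. Each probe was kept on its own, because probes of a gene can match different transcripts.

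The samples were myotubes of C2C12, mouse myoblasts that fuse into fibres with many nuclei once serum is lowered. Myoblasts received 60 nM of either scramble siRNA (Scramble) or siRNA against DJ-1 (siDJ-1), a protein encoded by Park7. The switch to differentiation medium followed after 48 h and RNA was taken after 4 days in it, from 3 samples per group, with 1 array each. All samples are of this 1 line, and because the sources used here do not say whether the 3 samples of a group were separate cultures, p-values measure only the spread between these samples, which may be technical.

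Myoblasts recognise each other through cadherins and immunoglobulin-type adhesion molecules before their membranes join. Caveolins shape small pits of the plasma membrane, with CAV3 as the muscle form, and dysferlin (DYSF) brings vesicles to tears in the membrane of the fibre. Tetraspanins organise partner proteins at sites of fusion, and BIN1 bends membrane into the transverse tubules of the mature fibre.

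Signals were background-corrected, quantile normalized and put on the log2 scale, on which a difference of 1 is a doubling. A probe counted as detected on an array where its detection p-value, from the negative control beads, was under 0.05, and it was tested if this held on at least 3 of the 6 arrays. Tests were made with limma's moderated test on all 17890 such probes, and a probe was called where its Benjamini-Hochberg adjusted p over all of them was under 0.05. Fold changes are siDJ-1 over Scramble, with the standard error (SE) of the log2 fold change.

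The target of the siRNA was read first. The probe of Park7 had a normalized log2 signal of 13.60, 13.37 and 13.63 on the Scramble arrays and of 12.48, 12.49 and 12.15 on the siDJ-1 arrays. All 3 siDJ-1 arrays lay below all Scramble arrays, at 44.7% of the Scramble level (log2 fold change -1.16, SE 0.14, adjusted p = 0.00344 by limma).

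The cells were checked against markers of myotubes and of other cells. All 11 myotube marker genes were detected, and Acta1, skeletal muscle actin, had the highest mean signal of them over the 6 arrays, though Mylpf was above it on each Scramble array. Acta1 had a log2 signal of 15.21, 15.35 and 15.33 on the Scramble arrays and of 15.35, 15.38 and 15.15 on the siDJ-1 arrays. The summed signal of the myotube list was 252479, 246399 and 245568 with Scramble and 203260, 216622 and 186668 with siDJ-1. It was thus lower on every siDJ-1 array than on any Scramble array, and of 22 tested probes of the list 10 were lower and 2 were higher. The share called was 54.55%, beside 30.1% of all tested probes on the array (13.6% lower and 16.5% higher). Both higher probes of the list were of Ttn, titin, whose 7 tested probes did not move alike: 3 were called lower (-0.59, -0.76 and -0.64 on the log2 scale) and 2 higher (1.77 and 0.76, the latter detected on 1 Scramble array). Neither higher probe matched an entry of the RefSeq gene table, nor did the lower probe at -0.59 and a probe not called (0.10). The lower probes at -0.76 and -0.64 did match, as did another probe not called (-0.38). Among the endothelial markers Cldn5, Emcn, Kdr and Tie1 were not detected on any array, among the leukocyte markers Csf1r, Itgam, Lyz2 and Ptprc, among the neural markers Gfap, Nefl, S100b and Tubb3, and among the adipocyte markers Adipoq, Cfd and Plin1. Other genes of these lists were detected: 4 of 8 endothelial, 3 of 8 leukocyte, 4 of 8 neural and 5 of 8 adipocyte genes.

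Other marker lists also moved with the groups. The summed signal of the fibroblast list, whose brightest gene was Col3a1, was 25960, 24672 and 25377 with Scramble and 16256, 18206 and 15765 with siDJ-1. Its 9 tested probes included 5 that were lower and 0 that were higher, or 55.56% called beside 30.1% of all tested probes (13.6% lower). Of its 8 genes 6 were detected in this muscle line, Lum and Thy1 on no array. The myoblast list, led by Sdc4, summed to 6746, 6886 and 6757 with Scramble and to 6617, 6848 and 6742 with siDJ-1, so that its groups overlapped. Of its 11 tested probes 2 were lower, those of Myod1 (log2 fold change -0.90, adjusted p = 0.00317 by limma) and Heyl (log2 fold change -1.73, adjusted p = 0.00383 by limma), and 0 were higher, or 18.18% called. Groups also did not overlap, with no call, for Sdc4 (0.22), Cdk1 (0.30), both probes of Top2a (0.25 and 0.23), 1 of 2 of Mki67 (0.47) and Hes1 (-0.52). Pax3 and Pax7 were not detected on any array. All 3 tested probes of the adipocyte list were called, or 100%, beside 30.1% of all tested probes on the array. Pparg was higher (log2 fold change 1.06). Lpl (-0.59) and Cebpa (-0.63) were lower, the latter detected on 1 siDJ-1 array and so set against a level near background. In such bulk RNA, fewer fused cells and less RNA of a gene per cell cannot be told apart, and the part that the lower myotube signal has in the results for single genes was not tested.

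**Figure D1:**
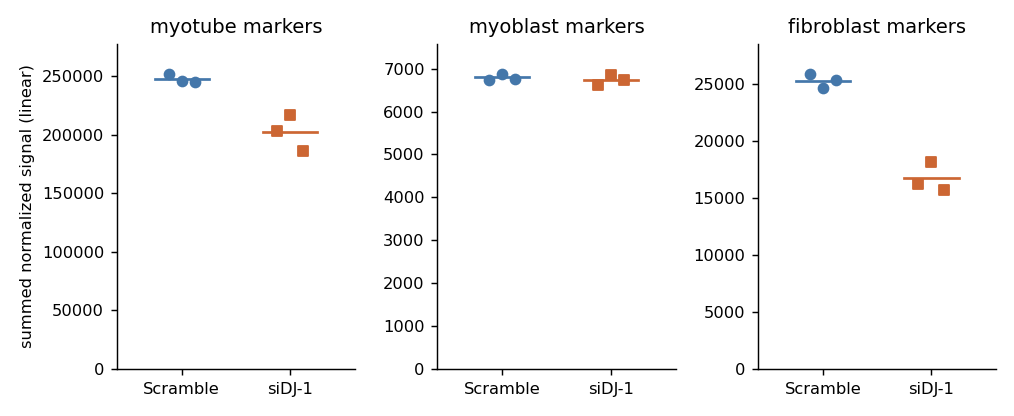
Summed normalized signal (linear scale, from 0) of all probes of the myotube, myoblast and fibroblast marker lists, with a point per array and a line at the mean of each group of 3 arrays. The siDJ-1 arrays lie below the Scramble arrays for myotube markers (186668 to 216622 against 245568 to 252479) and fibroblast markers, and the groups overlap for myoblast markers.

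Of the 22 probes of the 10 genes, 17 were tested, and each of these was detected on all 6 arrays. Of the tested probes 5 were called, or 29.4%, beside 30.1% of all tested probes on the array. There were 3 higher (CAV1, 1 of the 3 probes of NCAM1 and 1 of the 2 tested probes of VCAM1), where 16.5% of all tested probes were called higher. There were 2 lower (CAV3 and 1 of the 4 tested probes of DYSF), where 13.6% of all were called lower. For 11 of the 17 probes the groups did not overlap, beside 48.5% of all tested probes. The median absolute log2 fold change was 0.30 for both the 17 probes and all tested probes. The share of calls was therefore near that of the whole array, and the values of single genes carry what follows.

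**Figure D2:**
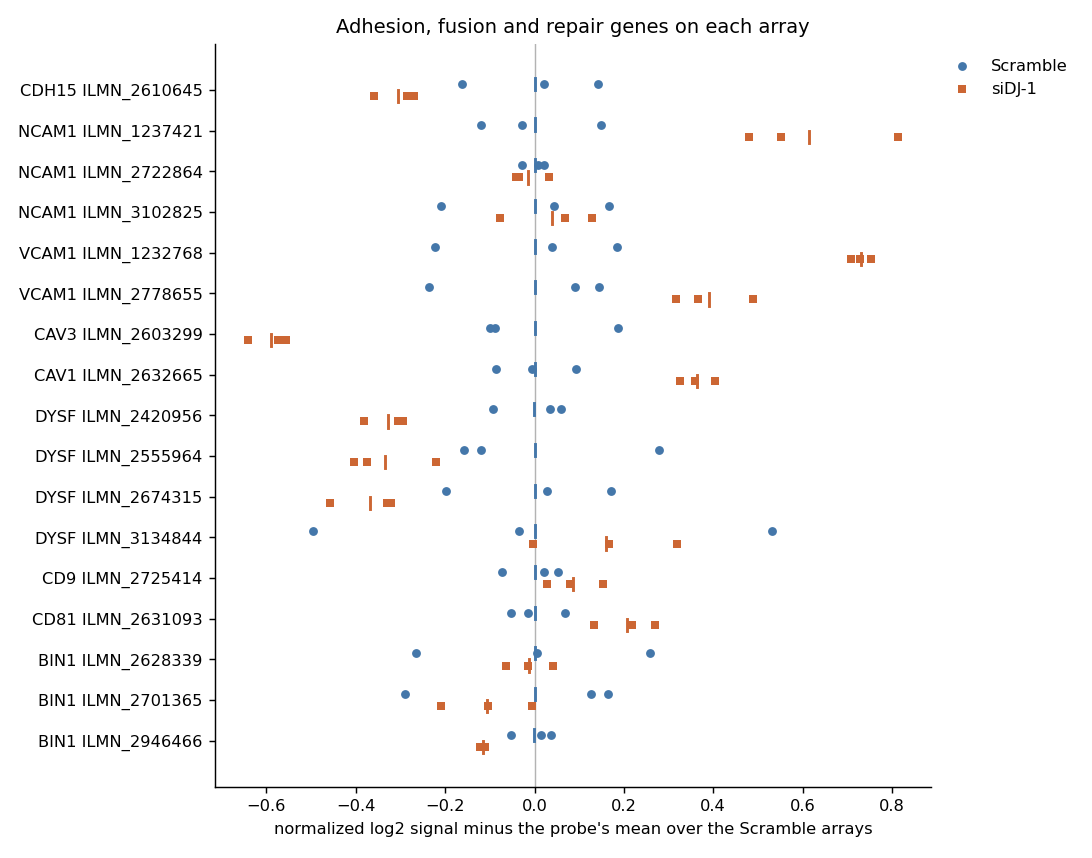
Normalized log2 signal of the 17 tested probes on each array, minus the mean of the probe over the 3 Scramble arrays (circles: Scramble, squares: siDJ-1, ticks: group means). The siDJ-1 squares lie apart from the Scramble circles for 11 probes, with CAV3 to the left and CAV1 to the right.

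CDH15 is M-cadherin, the cadherin of muscle precursors. Its log2 signal was 11.76, 12.07 and 11.95 with Scramble and 11.57, 11.66 and 11.64 with siDJ-1. All siDJ-1 arrays lay below the lowest Scramble array, by little in the case of Scramble replicate 1. The log2 fold change of -0.30 (SE 0.11, 95% confidence interval -0.57 to -0.04) missed the threshold, with an adjusted p of 0.0809 by limma. It passed under 4 of 14 alternatives, among them leaving out Scramble replicate 1 (adjusted p = 0.0392), and over all of them the adjusted p ran from 0.0108 to 0.309 and the log2 fold change from -0.39 to -0.18.

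CDH2, N-cadherin, was not tested, as no probe of it passed the detection filter. Its probe ILMN_1216390 was detected on 2 siDJ-1 arrays and on no Scramble array, with a log2 signal of 5.28, 5.15 and 5.19 on the Scramble arrays and of 5.47, 5.77 and 5.28 on the siDJ-1 arrays. Its probe ILMN_2605503 was detected on Scramble replicate 1 alone, with a log2 signal of 5.98, 4.63 and 5.14 with Scramble and 4.70, 4.89 and 4.65 with siDJ-1. These signals lay at the edge of detection, so no change of CDH2, and no comparison of M-cadherin with N-cadherin, is given.

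NCAM1, the neural cell adhesion molecule that is also present on myoblasts, had 3 tested probes that did not move alike. Probe ILMN_1237421 had a log2 signal of 10.16, 10.26 and 10.43 on the Scramble arrays and of 10.76, 10.84 and 11.10 on the siDJ-1 arrays. Every siDJ-1 array was above every Scramble array (log2 fold change 0.61, SE 0.13, adjusted p = 0.0161 by limma). Without siDJ-1 replicate 3 the adjusted p was 0.0508, and over all alternatives it ran from 0.000511 to 0.0508.

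Probe ILMN_2722864 of NCAM1 had a log2 signal of 12.20, 12.19 and 12.15 on the Scramble arrays and of 12.14, 12.21 and 12.14 on the siDJ-1 arrays. Its groups overlapped, and the log2 fold change of -0.02 (95% confidence interval -0.23 to 0.20) turned positive, to 0.11 and 0.055, with a 75th percentile shift in place of quantile normalization, with and without background correction. Probe ILMN_3102825 had a log2 signal of 9.14, 8.76 and 9.01 on the Scramble arrays and of 8.89, 9.04 and 9.10 on the siDJ-1 arrays, with overlapping groups and a log2 fold change of 0.04 (95% confidence interval -0.27 to 0.35). The within-array difference of ILMN_1237421 and ILMN_2722864 was larger on siDJ-1 arrays by 0.63 on the log2 scale, a pair chosen after its values were seen and so not tested. The file gives ILMN_1237421 and ILMN_3102825 the same transcript accession, and ILMN_2722864 another one.

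VCAM1 is an adhesion molecule of the immunoglobulin family. Probe ILMN_1232768 had a log2 signal of 6.43, 6.02 and 6.29 on the Scramble arrays and of 6.95, 7.0 and 6.97 on the siDJ-1 arrays. The siDJ-1 arrays were close together and all above the Scramble arrays (log2 fold change 0.73, SE 0.13, adjusted p = 0.00863 by limma). The probe was dim, with a deposited intensity between 203.1 and 275.6, and without background correction its log2 fold change was 0.31, or 0.32 with a 75th percentile shift. The file ties it to a cDNA accession that matched no entry of the RefSeq gene table. It was called under each of the 13 alternatives that gave a value, with an adjusted p of 0.0362 or lower.

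The probe of VCAM1 that did match RefSeq, ILMN_2778655, had a deposited intensity of 2344 to 4173. Its log2 signal was 11.09, 11.42 and 11.47 with Scramble and 11.69, 11.82 and 11.64 with siDJ-1. The groups again did not overlap, and the log2 fold change of 0.39 (SE 0.13) had an adjusted p of 0.0639 by limma, past the threshold under 5 of 14 alternatives and with an adjusted p of 0.00652 to 0.156 over all of them. The other probes of VCAM1, ILMN_1241993 and ILMN_2552295, were not detected on any array, and their log2 signals lay at 4.79, 4.94 and 4.87 with Scramble and 5.25, 5.26 and 5.05 with siDJ-1 for the former and at 4.95, 4.99 and 5.05 with Scramble and 4.97, 4.93 and 5.13 with siDJ-1 for the latter. The endothelial marker list, added because VCAM1 and CAV1 are abundant in vessels, summed to 372, 398 and 369 with Scramble and to 406, 369 and 346 with siDJ-1. Its groups overlapped, and Vwf, its brightest gene, did not pass the test (adjusted p = 0.873 by limma, log2 fold change 0.06). Of the 11 probes of the list 4 were detected on any array and 1 was tested. The sum is thus mostly background and cannot show whether vessel cells were present or changed.

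CAV3 and CAV1 moved in opposite directions. Their upstream sequences are shown for that reason, as the 250 bases before each transcript start in the RefSeq promoter table of build GRCm38.p6, which holds 1 start of Cav3 and 2 of Cav1. All lie on the plus strand of the same chromosome, at chr6:112459255-112459504 for Cav3 and at chr6:17306085-17306334 and chr6:17307390-17307639 for Cav1, and capitals mark the E-box letters CANNTG, to which myogenic factors of the MyoD family bind.
Cav3: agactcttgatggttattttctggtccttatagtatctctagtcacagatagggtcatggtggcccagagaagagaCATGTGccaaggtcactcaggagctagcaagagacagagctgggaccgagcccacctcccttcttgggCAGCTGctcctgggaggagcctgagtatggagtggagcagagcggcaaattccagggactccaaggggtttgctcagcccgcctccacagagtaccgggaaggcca
Cav1 start 1: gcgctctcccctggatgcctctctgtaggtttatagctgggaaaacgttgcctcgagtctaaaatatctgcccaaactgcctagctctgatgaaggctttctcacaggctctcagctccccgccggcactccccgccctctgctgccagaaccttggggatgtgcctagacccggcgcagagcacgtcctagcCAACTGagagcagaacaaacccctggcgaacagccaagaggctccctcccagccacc
Cav1 start 2: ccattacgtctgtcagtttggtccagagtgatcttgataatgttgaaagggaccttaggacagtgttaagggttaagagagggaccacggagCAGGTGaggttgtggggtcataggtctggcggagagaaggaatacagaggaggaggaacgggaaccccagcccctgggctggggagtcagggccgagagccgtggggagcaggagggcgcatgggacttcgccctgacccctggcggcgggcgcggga

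The Cav3 window held 2 CANNTG matches, 1 of them CAGCTG, which is a case of CANNTG, and each Cav1 window held 1 match, neither of them CAGCTG. Of all 32851 windows of this length in the table, 66.2% held CANNTG and 13% held CAGCTG. Both motifs read the same on both strands. A match describes the letters and not a bound site. GGGCGG, read on both strands and found in 32.7% of windows, was, of these 3 windows, in that of the first Cav1 start. Of the other genes with a window, Cd9 and Cdh15 held 3 CANNTG matches each and Cd81 held 1, with a CAGCTG in Cd9 and in Cd81, while both windows of Dysf held no CANNTG.

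CAV3 had a log2 signal of 9.51, 9.49 and 9.78 on the Scramble arrays and of 8.95, 9.02 and 9.04 on the siDJ-1 arrays. The siDJ-1 arrays were all low, and the highest of them was below the lowest Scramble array. CAV3 thus fell to 66.4% of the Scramble level (log2 fold change -0.59, SE 0.11, 95% confidence interval -0.86 to -0.32, adjusted p = 0.0117 by limma). Its adjusted p was 0.0508 without siDJ-1 replicate 1 and ran from 0.00132 to 0.0508 over 14 alternatives. The summed myotube marker signal given above was also lower on the siDJ-1 arrays, and its part in the fall of CAV3 was not tested.

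CAV1, the caveolin of most other cell types, had a log2 signal of 13.43, 13.33 and 13.25 on the Scramble arrays and of 13.69, 13.74 and 13.66 on the siDJ-1 arrays. All siDJ-1 arrays were above all Scramble arrays. CAV1 rose to 1.29 times the Scramble level (log2 fold change 0.36, SE 0.10, 95% confidence interval 0.13 to 0.59, adjusted p = 0.0316 by limma). The call of CAV1 was lost under 7 of 14 alternatives, with an adjusted p of 0.0733 without Scramble replicate 2, 0.0826 without Scramble replicate 3, 0.0973 without siDJ-1 replicate 1, 0.0838 without siDJ-1 replicate 2 and 0.072 without siDJ-1 replicate 3, within a range of 0.000574 to 0.0973 over all of them. Its log2 fold change stayed between 0.32 and 0.52 over the same alternatives.

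Taken within each array, the log2 signal of CAV3 minus that of CAV1, set to a mean of 0 over the Scramble arrays, was -0.18, -0.09 and 0.27 with Scramble and -1.0, -0.98 and -0.88 with siDJ-1. The siDJ-1 arrays stood close together and far below all Scramble arrays. The difference fell by 0.95 on the log2 scale, and the two-sided exact permutation p over the 6 arrays was 0.1, the smallest that 3 against 3 samples allow. The adjusted p over the 2 such differences tested was 0.1 by exact permutation. Under the 12 alternatives that gave a value, the difference lay between -1.07 and -0.81.

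The cavins form the coat of the caveola on its inner side. Of 19 tested probes of the caveola list, 4 were lower and 1 was higher, or 26.3% called beside 30.1% of all tested probes, and the median log2 fold change was -0.22 beside 0.05 over all tested probes. Cavin4, the cavin of muscle, had a log2 signal of 13.23, 13.35 and 13.29 on the Scramble arrays and of 12.49, 12.63 and 12.52 on the siDJ-1 arrays, so that it was lower on every siDJ-1 array (log2 fold change -0.74, SE 0.10, adjusted p = 0.004 by limma). Both called probes of Cavin3 were lower (log2 fold changes -0.66 and -0.45, adjusted p = 0.00596 and 0.0143 by limma). Both probes of Cavin1, the cavin of most cell types, were not called (log2 fold changes -0.17 and -0.17). At both, however, every siDJ-1 array lay below every Scramble array, by little. The caveolin Cav2 was not called either, and its groups overlapped (log2 fold change 0.37, SE 0.23). Cavin2 was the probe that rose, with a log2 signal of 11.44, 11.30 and 11.12 on the Scramble arrays and of 11.92, 11.94 and 11.68 on the siDJ-1 arrays (log2 fold change 0.56, SE 0.13, adjusted p = 0.0203 by limma).

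**Figure D3:**
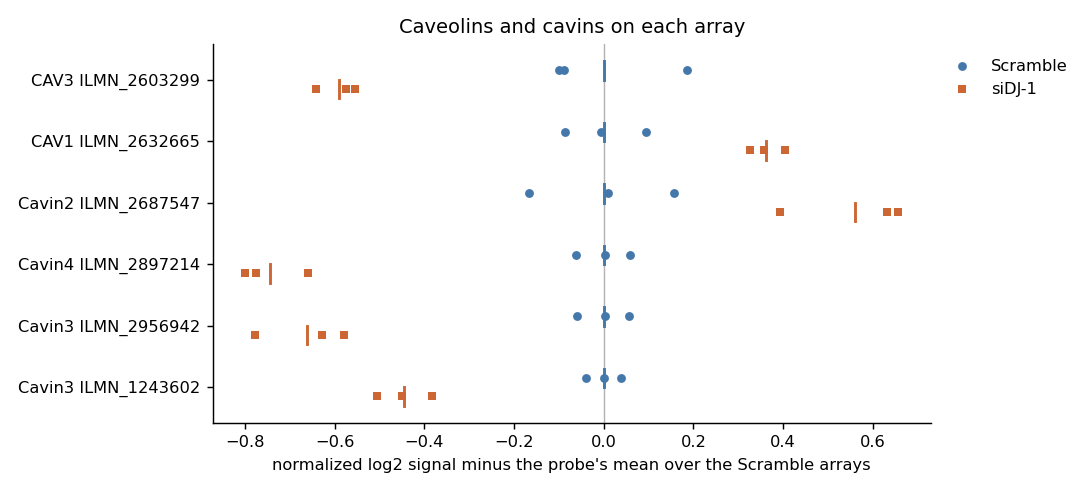
Normalized log2 signal of CAV3, CAV1 and the called cavin probes on each array, minus the mean of the probe over the 3 Scramble arrays (circles: Scramble, squares: siDJ-1, ticks: group means). CAV3, Cavin4 and both probes of Cavin3 lie to the left of 0 on all siDJ-1 arrays, CAV1 and Cavin2 to the right.

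DYSF had 5 probes, of which 4 were tested. Probe ILMN_2420956 had a log2 signal of 11.28, 11.31 and 11.15 on the Scramble arrays and of 10.94, 10.95 and 10.86 on the siDJ-1 arrays. All siDJ-1 arrays were below all Scramble arrays, and the probe was called lower (log2 fold change -0.33, SE 0.10, 95% confidence interval -0.55 to -0.10, adjusted p = 0.0421 by limma). This call lay near the threshold and was lost on leaving out any 1 of the 6 arrays, with an adjusted p of 0.0766, 0.102 and 0.0523 without Scramble replicates 1, 2 and 3 and of 0.116, 0.0802 and 0.119 without siDJ-1 replicates 1, 2 and 3. Over all 14 alternatives it ran from 0.00551 to 0.161, with a log2 fold change of -0.37 to -0.20, the smallest with a 75th percentile shift after background correction.

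Probe ILMN_2674315 of DYSF had a log2 signal of 7.03, 7.26 and 7.41 on the Scramble arrays and of 6.91, 6.78 and 6.91 on the siDJ-1 arrays. Probe ILMN_2555964, which the file names DYSF through a cDNA accession with no match in RefSeq, had a log2 signal of 6.09, 5.69 and 5.66 on the Scramble arrays and of 5.44, 5.59 and 5.41 on the siDJ-1 arrays. In both the siDJ-1 arrays lay below the Scramble arrays, and neither passed the test (log2 fold changes -0.37 and -0.33, adjusted p = 0.0638 and 0.125 by limma). ILMN_2674315 passed with the stricter detection filter and without Scramble replicate 1 (adjusted p = 0.036 and 0.0282 by limma, within 0.0282 to 0.155 over its alternatives), and its log2 fold change was -0.19 without background correction. ILMN_2555964 had a log2 fold change of -0.10 without background correction and of -0.20 without Scramble replicate 1, and it passed under none of its 13 alternatives (adjusted p = 0.0659 to 0.445 by limma). Probe ILMN_3134844 had a log2 signal of 6.89, 7.45 and 6.42 on the Scramble arrays and of 6.92, 7.09 and 7.24 on the siDJ-1 arrays. Here the Scramble arrays spread over more than the siDJ-1 arrays and the groups overlapped (log2 fold change 0.16, SE 0.25), and without Scramble replicate 3 the sign turned, to -0.086. Probe ILMN_3057828 was not detected on any array, at a log2 signal of 5.10, 4.65 and 5.08 with Scramble and 4.90, 5.16 and 5.04 with siDJ-1.

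Among 44 tested probes of other genes of membrane repair, 2 were higher and 4 were lower, with a median log2 fold change of -0.01. The share called was 13.6%, beside 30.1% of all tested probes. Xirp1, an actin-binding protein of damaged and growing fibres, had a log2 signal of 9.52, 9.76 and 9.79 on the Scramble arrays and of 8.30, 8.41 and 8.51 on the siDJ-1 arrays. Every siDJ-1 array was far below the Scramble arrays (log2 fold change -1.28, SE 0.12, adjusted p = 0.00277 by limma). The other falls were of Capn3, the muscle calpain, at all 3 of its tested probes, with log2 fold changes of -0.85, -0.78 and -1.04, the last of them at a probe detected on 2 of the 3 siDJ-1 arrays and so set against a level near background. The rises were at 2 probes of Ahnak, a large dysferlin-binding protein, with 0.79 and 0.66. The other tested probes of Ahnak, ILMN_2458765 and ILMN_3079919, were not called and had log2 fold changes of -0.06 and -0.17, so that its probes did not move alike.

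The tetraspanins CD9 and CD81 were not called. CD9 had a log2 signal of 12.33, 12.30 and 12.21 on the Scramble arrays and of 12.36, 12.44 and 12.31 on the siDJ-1 arrays, and CD81 had 14.35, 14.27 and 14.23 with Scramble and 14.41, 14.50 and 14.55 with siDJ-1. The groups overlapped for CD9 (log2 fold change 0.09, 95% confidence interval -0.14 to 0.31, adjusted p = 0.524 by limma). They did not overlap for CD81 (log2 fold change 0.21, 95% confidence interval -0.02 to 0.43, adjusted p = 0.146 by limma). CD81 passed the threshold under 3 of 14 alternatives, with an adjusted p of 0.011 to 0.319 and a log2 fold change of 0.17 to 0.40 over all of them, the largest with a 75th percentile shift after background correction.

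Within each array, the log2 signal of CD9 minus that of CD81, set to a mean of 0 over the Scramble arrays, was -0.02, 0.04 and -0.02 with Scramble and -0.05, -0.06 and -0.24 with siDJ-1. The siDJ-1 arrays were lower, 2 of them by little. The difference fell by 0.12 on the log2 scale, with a two-sided exact permutation p of 0.1 over the 6 arrays. It was -0.05 without siDJ-1 replicate 3 and lay between -0.17 and -0.05 over 12 alternatives. Of 35 tested probes of other tetraspanins and their partners, 5 were higher and 2 were lower (median log2 fold change -0.05). The share called was 20%, beside 30.1% of all tested probes. Tspan8 had a log2 signal of 9.29, 8.95 and 9.43 on the Scramble arrays and of 7.03, 7.54 and 6.64 on the siDJ-1 arrays, the largest fall in the companion lists (log2 fold change -2.15, SE 0.24, adjusted p = 0.00323 by limma). A probe of Ifitm3 was also lower (-0.41), while 1 of 3 tested probes of Ifitm1 (0.84), 2 of 3 of Tspan4 (0.55 and 0.50) and 1 of 2 of Tspan3 (0.54) were higher. The fifth higher probe was of Tspan14 (0.44). The remaining tested probes of Ifitm1, Tspan4 and Tspan3 were not called, with -0.33 and -0.16 for Ifitm1, the former with groups that did not overlap, 0.04 for Tspan4 and 0.25 for Tspan3.

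BIN1, amphiphysin 2, had 3 tested probes and no call. Probe ILMN_2946466 had a log2 signal of 13.28, 13.19 and 13.26 on the Scramble arrays and of 13.13, 13.12 and 13.13 on the siDJ-1 arrays. The siDJ-1 arrays lay just below the Scramble arrays, and the log2 fold change of -0.12 (95% confidence interval -0.33 to 0.09, adjusted p = 0.359 by limma) turned to 0.016 with a 75th percentile shift after background correction. Probe ILMN_2628339 had a log2 signal of 8.27, 8.0 and 8.53 on the Scramble arrays and of 8.20, 8.25 and 8.31 on the siDJ-1 arrays, and probe ILMN_2701365 had 5.92, 6.34 and 6.37 with Scramble and 6.11, 6.21 and 6.0 with siDJ-1. The groups overlapped for both, with log2 fold changes of -0.01 and -0.11. Of 14 tested probes of other tubule and membrane-bending genes, 5 were higher and 0 were lower (median log2 fold change 0.32), or 35.7% called beside 30.1% of all tested probes, of which 16.5% were higher and 13.6% lower. The 5 probes belong to 3 genes, Clta, Sh3glb1 and Cltc, the last with 0.61 at 1 probe and -0.02 and no call at the other. The named rises were of Clta, a clathrin light chain, at 2 of its 3 tested probes (0.80 and 0.57, with -0.04 and no call at the other), and of both probes of Sh3glb1, an endophilin (0.66 and 0.61). The Clta probe that was not called matched no entry of the RefSeq gene table.

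**Figure D4:**
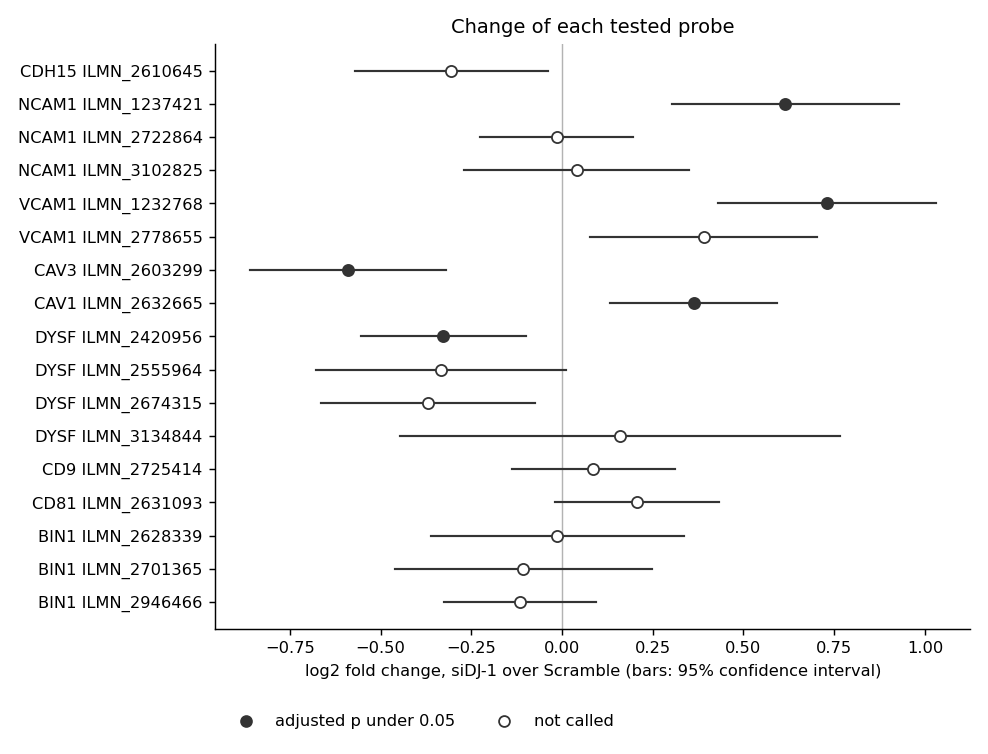
Log2 fold change (siDJ-1 over Scramble) of each of the 17 tested probes, with bars for the 95% confidence interval and filled points for the 5 called probes. The probes of NCAM1 differ among themselves, from -0.02 to 0.61, and 3 of the 4 probes that the file names DYSF, 1 of them with no RefSeq match, lie between -0.37 and -0.33.

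The remaining companion lists held genes of cell adhesion and of myoblast fusion. Of 33 tested probes for adhesion, 6 were higher and 3 were lower (median log2 fold change 0.07), or 27.3% called beside 30.1% of all. Cdh13, T-cadherin, had a log2 signal of 9.11, 8.64 and 8.78 on the Scramble arrays and of 9.95, 9.81 and 10.12 on the siDJ-1 arrays at its probe with the larger rise. Its siDJ-1 arrays were all high (log2 fold change 1.12, SE 0.15, adjusted p = 0.00456 by limma), its other tested probes rose by 0.85 and 0.56, and Alcam rose by 0.95. All 3 lower probes were of Jam2, a junctional adhesion molecule, with log2 fold changes of -0.81 and -0.42, and at least 1.31-fold lower for the probe that no siDJ-1 array detected, while a further probe of Jam2 was not called (-0.44). That bound sets the Scramble mean against the lowest signal of a detected probe, or the probe's own signal where that is higher.

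For fusion, 6 of 37 tested probes were higher and 5 were lower (median log2 fold change 0.07), or 29.7% called beside 30.1% of all. Mymk, the muscle membrane protein myomaker that myoblasts need to fuse, had a log2 signal of 10.42, 10.78 and 10.75 on the Scramble arrays and of 10.01, 10.17 and 9.80 on the siDJ-1 arrays. It was lower on every siDJ-1 array than on any Scramble array (log2 fold change -0.66, SE 0.15, adjusted p = 0.0195 by limma). Its other tested probe was lower too (-0.63), as were Fst, follistatin (-0.81), and Adam12 (-1.26), the latter detected on 2 of the 3 siDJ-1 arrays and so set against a level near background. Cdon, a cell surface receptor that binds cadherins, had a log2 signal of 4.97, 4.84 and 5.58 on the Scramble arrays and of 7.28, 6.69 and 7.90 on the siDJ-1 arrays. It was detected on 1 Scramble array and on all 3 siDJ-1 arrays, so the log2 fold change of 2.16 (SE 0.33, adjusted p = 0.00629 by limma) rests on a Scramble level near background. The other tested probe of Cdon, ILMN_1217117, was detected on all arrays and missed the threshold (adjusted p = 0.0755 by limma, log2 fold change 0.29). That probe matched no entry of the RefSeq gene table. Crk, an adaptor protein, was at least 1.35-fold higher at the probe that no Scramble array detected, and a further probe called higher was detected on 1 Scramble array and so also rests on a level near background. Crk probe ILMN_2987844, detected on all arrays, had overlapping groups and no call (adjusted p = 0.849 by limma, log2 fold change -0.03).

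**Figure D5:**
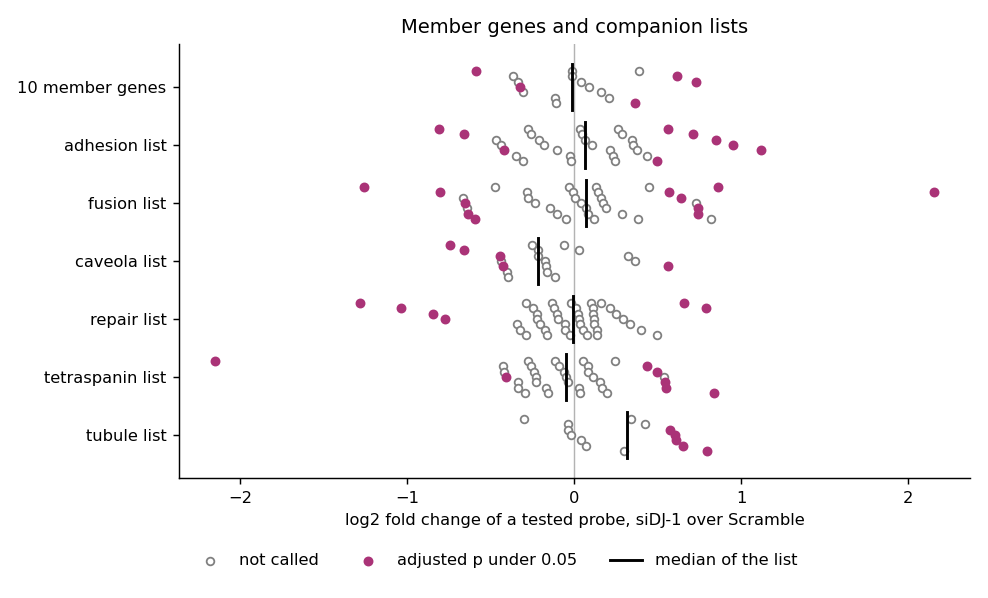
Log2 fold change (siDJ-1 over Scramble) of the tested probes of the 10 genes and of the 6 companion lists, with filled points for called probes and a line at the median of each list. Called probes lie on both sides of 0 in every list except the tubule list, which has 5 on the right and 0 on the left.

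Over the 6 companion lists together, 25 of 182 tested probes were higher and 18 were lower, or 23.6% called, beside 30.1% of all tested probes on the array. By list the share called was 27.3% for adhesion, 29.7% for fusion, 13.6% for repair and 20% for tetraspanins, beside the values given for caveola and tubule. Arrays also differed in quality between the groups. The standard error over the beads of a probe had a median of 11.3, 8.3 and 8.66 with Scramble and 7.17, 6.36 and 5.88 with siDJ-1, and the number of detected probes was 16985, 17399 and 18179 with Scramble and 18704, 18857 and 18408 with siDJ-1. Every Scramble array thus had noisier beads and fewer detected probes than any siDJ-1 array, and the part of this in the calls was not tested.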

How the data were processed

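RNA of 6 samples (200 ng each) was labelled and hybridized to an Illumina mouse BeadChip. The authors deposited, for each probe and array, a mean intensity over beads with its standard error, how many beads were read, and a detection p-value, neither normalized nor corrected for background.

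In R 4.3.3 with limma 3.58.1, neqc was applied (normexp background from the detection p-values, offset 16, quantile normalization, log2). Probes detected at 0.05 on at least 3 arrays were fitted with lmFit and eBayes, group against group. Differences between genes within an array were tested with a two-sided exact permutation test. Columns were assigned by sample title, the scripts were tested on simulated data, and arrays of a group correlated with r of 0.982 to 0.992. Precision is limited by having 3 arrays per group.

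Gene names were updated through RefSeq (GRCm38.p6), with a match for 32345 probes. Named are every probe of the 10 genes, Park7, and of each companion list up to 3 called probes with the largest rise and up to 3 with the largest fall, with groups that do not overlap and detection on every array of a group. Other tested probes of these genes, and Cav2, Cavin1, Cltc, Mylpf, Tspan14, Ttn and named myoblast and adipocyte markers, were added to the text after the values were seen. The members and lists were chosen with earlier results of these data known. The marker lists were for myotubes, myoblasts, fibroblasts, endothelium, adipocytes, leukocytes and neural cells. The adipocyte list had 1 probe higher and 2 lower of 3 tested, with Lpl the brightest gene and a sum of 2348, 1889 and 2243 with Scramble and 1669, 1942 and 1525 with siDJ-1. The leukocyte list (brightest gene Cd68) summed to 504, 545 and 482 and to 541, 505 and 513, and the neural list (Map2) to 585, 511 and 627 and to 556, 578 and 582, each with 1 tested probe and 0 called. The result of 1 leukocyte marker is not reported here. RefSeq promoters were matched by symbol, with member windows on 1 chromosome left out, though the shares over all windows kept that chromosome. After this 6 of the 10 genes had a window (8 windows). A gene with no window here may thus still have a RefSeq promoter. The alternatives were no background correction (signals floored at 1), equal 75th percentiles in place of quantiles (background corrected or not), no filter, detection at 0.01 on all arrays, a trend in the prior variance, a block for the replicate number, an unmoderated t-test (named in the methods for data in general, where the arrays had a moderated one), and each array left out.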

Additional observations from a re-analysis of the deposited data

How the results depend on the processing

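Park7 kept its direction and its call under all 14 alternatives (log2 fold change -1.24 to -1.0). The directions of CAV3, CAV1, CDH15, CD9, CD81, both tested VCAM1 probes and NCAM1 ILMN_1237421 were also kept. The probes called on the array numbered 3519 with no filter and 2444 to 5302 with 1 array left out (2444 without siDJ-1 replicate 1, 2612 without siDJ-1 replicate 3), against 5387. Their number rose to 6470 with the trend. Without background correction it was 6292, or 6291 with equal 75th percentiles. Of the member probes, 5 were higher with either 75th percentile shift and with the trend, and 1 to 3 with 1 array left out, against 3. Of them 1 was lower after background correction with equal 75th percentiles and with no filter, 4 with the stricter detection filter and 0 to 3 with 1 array left out, against 2. The companion probes called higher numbered 13 with the unmoderated t-test and 10 to 23 with 1 array left out, against 25, and those called lower 11 with no filter and 8 to 17 with 1 array left out, against 18. With the trend 29 were called higher and 27 lower. Those called lower numbered 24 without background correction and 23 with the stricter detection filter. Fewer samples or more tests entered the left-out and unfiltered fits, and the cause of none of these changes was tested.

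Among probes that were not called, the sign turned for BIN1 ILMN_2946466 (0.016 after background correction with equal 75th percentiles), BIN1 ILMN_2628339 (0.12 without Scramble replicate 3 and 0.013 without siDJ-1 replicate 1, from a lowest value of -0.15 with an array left out), DYSF ILMN_3134844 (-0.086 without Scramble replicate 3, up to 0.42 with another array left out), NCAM1 ILMN_3102825 (-0.065 without Scramble replicate 2 and -0.0055 without siDJ-1 replicate 3, up to 0.12 with another array left out) and NCAM1 ILMN_2722864 (0.11 and 0.055 with the 75th percentile shift with and without background correction). The cause was not tested.

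After normalization, deviations from the group means of same-numbered arrays correlated at 0.05, 0.05 and 0.02 across probes. Before it, the median deposited intensity was 162.2, 167.4 and 153.5 on Scramble replicates 1, 2 and 3. It was 161, 166.9 and 152.3 on the same-numbered siDJ-1 arrays, and so went with the replicate number. Whether same-numbered samples were paired or shared a batch was not tested. With the replicate block 4350 probes were called, and of the members 2 were higher and 1 was lower, with CAV1 and DYSF ILMN_2420956 not called (adjusted p = 0.0665 and 0.0758 by limma). The difference between CDH15 and CDH2 was not computed, as no probe of CDH2 passed the detection filter. The difference between NCAM1 probes was chosen after seeing the data and lay between 0.51 and 0.72 over its 12 alternatives. Dim probes near background, such as those of CDH2, limit what can be read.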
